A study of Mus musculus with 3 samples.

Results

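Heat shock proteins and DnaJ proteins are the chaperones that hold, fold and sort other proteins. Of the 31058 genes counted in single cells of mouse glomeruli, 74 belong to these families. They were taken by symbol (Hspa, Hspb, Hspd, Hspe, Hsph, Hsp90 or Dnaj at its start, pseudogenes left out), and the rule itself reads no expression value. They comprise 13 Hspa genes, 3 Hsp90 genes, 10 genes with the Hspb prefix, 45 Dnaj genes, and Hspd1, Hspe1 and Hsph1. By role, 9 were listed as cytosolic and stress-induced, 12 as endoplasmic reticulum (ER), 10 as mitochondrial, 6 as small heat shock proteins and 9 as other HSP70 or HSP90 genes, with 28 others. All 74 matched the GENCODE M21 annotation by gene identifier. In the cells kept, 3 had 0 UMIs (Hspb3, Dnajb8 and Dnajc5g), and Dnajc5b had 17, Hspb9 had 9 and Dnajb7 had 7. A UMI (unique molecular identifier) marks 1 captured RNA molecule, and the other 68 members had at least 20.

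The cells came from 3 healthy C57Bl/6 mice, 1 per group: a male, a female, and a female labelled RPC-ERαKO (female ERaKO in the plots). All 3 had the alleles Pax2.rtTA, TetO.Cre and R26.Confetti, a doxycycline-dependent Cre system driven by the Pax2 promoter with a multicolour reporter, were given doxycycline at 20 days of age and were followed to 90 days. The third also carried an ERalphaKO allele, a knockout of oestrogen receptor alpha. Each mouse gave 1 library of 3′ tags, so sex and genotype cannot be told apart from the individual mouse or its preparation. The knockout could not be checked here in any class, so no class of the RPC-ERαKO library is taken to lack the receptor. Esr1, the targeted gene, was rarely captured in podocytes (2, 1 and 3 UMIs in the male, female and RPC-ERαKO libraries). More was captured in smooth muscle and renin cells (40, 25 and 25 UMIs) and in proximal tubule cells (13, 8 and 67). The labels do not say which exon is deleted, and a 3′ tag outside the deleted part checks nothing.

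HSP70 proteins bind exposed hydrophobic stretches of other proteins, and DnaJ (HSP40) proteins deliver clients to them and switch on their ATPase. The inducible cytosolic members are switched on by heat shock factor HSF1 when unfolded protein accumulates, whereas the ER members, led by Hspa5 (BiP), answer to the unfolded protein response. Podocytes are epithelial cells of the glomerular filter with actin-rich foot processes, and small heat shock proteins bind actin and intermediate filament systems in contractile cells.

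RefSeq promoter windows, from 250 bases before to 50 bases after a start site, were found for 60 of the 74 members (GRCm38.p6). The heat shock element searched was GAA, any 2 bases, TTC, any 2 bases and GAA, on both strands, present in 0.662% of the windows of 27025 genes. It was in 4 of the 60 members: Hspd1, Hspe1, Dnajb6 and, after the start site, Hsph1. The Hspd1 and Hspe1 matches are the same bases, in the shared upstream stretch of these 2 genes, so 1 site counts for both. The shorter GAANNTTC, which the long element contains and which was added after those matches were seen, was in 9.04% of all genes, in 6 of 8 matched stress-induced members (Hspa1a, Hspa1b, Hspb1, Hsph1, Dnaja1 and Dnaja4) and in 0 of 10 matched ER members. It was also in 3 of 5 matched small heat shock members (Hspb3, Hspb6 and Hspb8). Of the remaining roles, 2 of 7 mitochondrial members (Hspd1 and Hspe1, at their shared site) had it. So did 3 of 23 others and 0 of 7 other HSP70 or HSP90 members. The ER stress response element, CCAAT and CCACG with any 9 bases between them, on both strands, was in 0.137% of all genes and in 3 of the 10 ER members: Hspa5, Dnajc3 and, with 2 matches, Hsp90b1. The upstream sequences given here are those of members on which the results turn, 5′ to 3′ on the gene's own strand, with the fixed letters of a match in capitals. Hspa1a, Hspa1b and Hspb1 carry GAANNTTC, Hspe1 carries the long heat shock element in overlapping matches on both strands, and Hspa5, Hsp90b1 and Dnajc3 carry the ER element. They span Hspa1a chr17:34972157-34972276 (minus strand), Hspa1b chr17:34959239-34959358 (minus), Hspb1 chr5:135887799-135887918 (plus), Hspe1 chr1:55088053-55088082 (plus), Hspa5 chr2:34772020-34772049 (plus), Hsp90b1 chr10:86705510-86705664 (minus) and Dnajc3 chr14:118937812-118937931 (plus).
Hspa1a: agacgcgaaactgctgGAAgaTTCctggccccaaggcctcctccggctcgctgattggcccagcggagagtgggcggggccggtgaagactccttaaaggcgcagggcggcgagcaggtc
Hspa1b: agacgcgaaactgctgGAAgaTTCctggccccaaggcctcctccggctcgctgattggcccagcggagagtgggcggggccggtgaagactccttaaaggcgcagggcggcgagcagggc
Hspb1: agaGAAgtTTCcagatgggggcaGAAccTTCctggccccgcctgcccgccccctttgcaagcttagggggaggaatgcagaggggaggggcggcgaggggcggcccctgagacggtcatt
Hspe1: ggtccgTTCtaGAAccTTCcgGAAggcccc
Hspa5: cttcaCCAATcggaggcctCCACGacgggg
Hsp90b1: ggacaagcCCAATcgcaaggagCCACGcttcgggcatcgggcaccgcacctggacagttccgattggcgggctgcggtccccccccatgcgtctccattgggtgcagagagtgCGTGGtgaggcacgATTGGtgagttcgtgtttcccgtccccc
Dnajc3: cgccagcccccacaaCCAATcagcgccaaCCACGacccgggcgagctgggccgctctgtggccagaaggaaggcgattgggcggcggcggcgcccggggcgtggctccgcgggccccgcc
A match is a run of letters and not evidence of binding. The windows upstream of Hspa1a and Hspa1b, neighbours on chromosome 17, are identical at 247 of 250 bases (98.8%).

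The libraries held 44585342, 44942380 and 47522141 UMIs (male, female and RPC-ERαKO) and kept 3221, 2847 and 2471 cells. Members gave 965351 of the kept UMIs. More barcodes exceeded 25% mitochondrial UMIs in the RPC-ERαKO library (34.0%) than in the male (21.0%) and female (17.7%) libraries, and any pair of libraries had 4 to 8 barcodes in common. Cells were clustered without the members or their pathway genes and named by marker genes, so each class name below means cells like that type. There were 7 classes with at least 30 cells in every library: podocytes (1173, 1372 and 792 cells), parietal epithelial (116, 75 and 202), endothelial (770, 688 and 474), mesangial (193, 51 and 149), smooth muscle and renin (284, 159 and 247), proximal tubule (100, 85 and 177) and mononuclear phagocytes (91, 71 and 52). Between 8.22% and 10.7% of cells stayed unnamed, among them a cluster of 137, 151 and 100 cells with Cst12. Its best marker list was podocyte, but the score of 0.59 was under the 1 required and 1 podocyte marker was 2-fold up. The proximal tubule class needs care throughout, because 1 cluster (20) held 99 of its 100 male cells and 2 others (13 and 14) held most of the female and RPC-ERαKO cells. Its median mitochondrial share was 8.95%, 15.9% and 13.0%, and 55, 19 and 67 of its cells were at 10% or less, so values at that stricter limit rest on few female cells. Comparisons between classes are among these 7, and "other classes" means the other 6. Levels below are UMIs summed per class and library as CPM (counts per 1000000 UMIs of that class), and sets of 3 values run male, female, RPC-ERαKO.

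Differences between classes were tested over the 3 mice, with each mouse as a block. A call means adjusted p under 0.05 and at least 1.5-fold against the mean of the other 6 classes (edgeR's quasi-likelihood test, Benjamini-Hochberg adjustment over 12578 genes). Of the 64 members tested, 55 were called in at least 1 class. In the proximal tubule 23 members were higher and 11 lower, where 27.5% and 27.9% of all genes were, so the members' share on the higher side exceeded the background. Podocytes had 15 higher and 10 lower (background 22.0% and 21.6%), and with DESeq2 10 higher and 14 lower, a scaling that moved all podocyte values by a median of -0.14. Endothelial cells had 12 and 13 (22.3% and 16.4%; DESeq2 9 and 15), parietal epithelial cells 11 and 6 (22.5% and 12.4%; upper quartile scaling 12 and 3, DESeq2 12 and 4), and smooth muscle and renin cells 12 and 9 (18.8% and 12.7%). Mononuclear phagocytes had 9 and 13 (22.5% and 22.2%). Mesangial cells had the fewest higher members, 5, against 15 lower (19.7% and 14.3%), and without the RPC-ERαKO library 9 of these were called lower. In most classes the members' shares were therefore near those of all genes, and the class differences lay in which members were involved. The 9 tested members called in no class were Hsp90ab1, the constitutive cytosolic HSP90, Hspa4, Hspa14, Hspbp1, Hspbap1, Dnajb6, Dnajc5, Dnajc21 and Dnajc25.

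**Figure D1:**
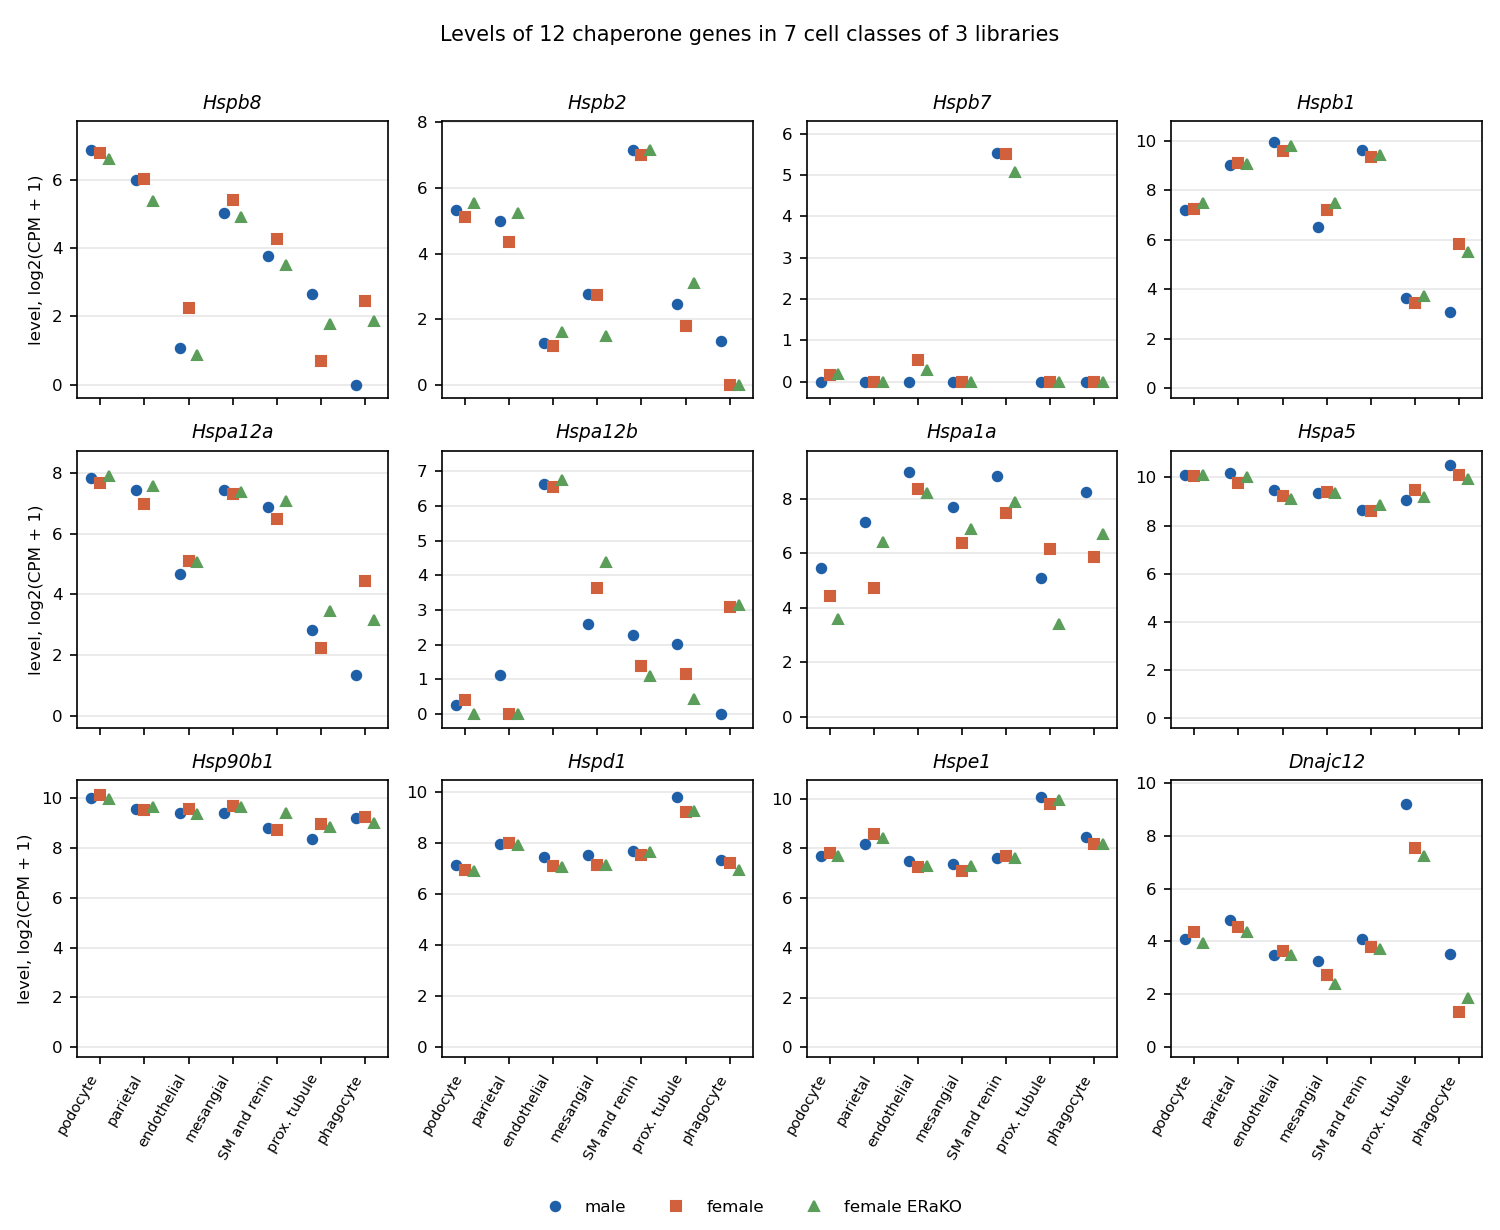
Levels of 12 members, as log2 (CPM + 1), in 7 cell classes, with 1 point for each of the 3 libraries. Hspb8, Hspb2, Hspb7, Hspa12a, Hspa12b and Dnajc12 separate classes more widely than the libraries of a class differ, while Hspa1a is spread widely both ways.

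The small heat shock proteins divided the classes. Among the 7 classes, Hspb7, a small heat shock protein of heart and vessels, was highest in smooth muscle and renin cells: 44.8, 44.5 and 32.8 CPM, from 81, 56 and 57 UMIs. Outside these classes, intercalated cells held it at 7.73, 9.69 and 21.2 CPM (63, 34 and 28 cells). The other 6 classes held 0 to 3 Hspb7 UMIs in each library, and the call (adjusted p = 5.68e-10, edgeR) is given without a fold because those counts are at or under the floor of 3. Hspb2, a muscle-type member, was also highest in smooth muscle and renin cells, at 142, 127 and 143 CPM, above every value of every other class (log2 fold change 4.69 ± 0.15 SE, adjusted p = 1.62e-16). Hspb6, a small heat shock protein of smooth muscle, reached 10.5, 11.9 and 13.2 CPM there (2.85 ± 0.36), and parietal epithelial cells overlapped it with 13.8, 8.78 and 9.66 CPM (2.34 ± 0.37). In phagocytes Hspb6 had 0 UMIs in all 3 libraries, which allows up to 4.53, 4.48 and 7.88 CPM.

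Podocytes were marked by Hspb8, the partner of Bag3 in the disposal of damaged filament proteins, at 116, 108.5 and 96.8 CPM. These values did not overlap those of any other class (log2 fold change 3.72 ± 0.16, adjusted p = 1.22e-14). Parietal epithelial cells came next at 62.8, 64.4 and 40.4 CPM (2.26 ± 0.21), and endothelial cells held 1.10, 3.74 and 0.836 CPM. Podocyte Hspb2 stood at 39.2, 33.3 and 45.1 CPM (2.57 ± 0.16), overlapping the parietal epithelial values of 31.1, 19.5 and 36.7 CPM. Bag3 itself, the HSP70 co-chaperone that Hspb8 binds, was lower in podocytes (-1.54 ± 0.12) and higher in endothelial cells (1.25 ± 0.10). Cryab, the small heat shock protein αB-crystallin, which was listed with the co-chaperones, was higher in podocytes (2.37 ± 0.18). Hspb2 and Cryab overlap in the annotation on opposite strands, and 0% of the 31-base words in Hspb2's last 500 transcript bases occur in other genes. Hspb1 (HSP27), counted here with the stress-induced genes, followed another order. It was highest in endothelial cells (982, 775 and 888 CPM; 2.71 ± 0.15) and smooth muscle and renin cells (779, 642 and 682.5; 2.49 ± 0.15), which overlapped, followed by parietal epithelial cells (519, 552 and 540), with 11.4, 9.79 and 12.4 CPM in the proximal tubule. The proximal tubule values lay below the mean of the other classes (log2 fold change -4.0 ± 0.27, adjusted p = 2.39e-11). Of Hspb1's last 500 transcript bases, 27.0% of 31-base words also occur in other genes.

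Among the classes compared, the 2 distant HSP70 relatives had different peaks, Hspa12a in podocytes and Hspa12b in endothelial cells. Hspa12b, known from blood vessels, stood at 97.5, 93.5 and 107 CPM in endothelial cells, above every other class (5.84 ± 0.23, adjusted p = 4.00e-15). Mesangial cells were called higher too, at 5.04, 11.3 and 20.0 CPM, but not when the RPC-ERαKO library was left out (log2 fold change 1.01). Hspa12a reached 228, 201.5 and 238 CPM in podocytes, above the other 6 classes (2.35 ± 0.14, adjusted p = 3.01e-12) though below the unnamed cluster with Cst12 (285, 289 and 305), followed by mesangial (173, 159 and 166) and parietal epithelial cells (173, 125 and 190), which overlapped each other. Endothelial Hspa12a was lower (24.3, 33.1 and 32.4 CPM; -1.18 ± 0.19). Hspa8, the constitutive HSC70, was higher in mononuclear phagocytes (2358, 2420 and 1887 CPM; 1.16 ± 0.09) and in the proximal tubule (1933, 1391 and 1384; 0.75 ± 0.09). For Hspa8, 85.3% of the words at its 3′ end recur in other genes, so its counts are uncertain.

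**Figure D2:**
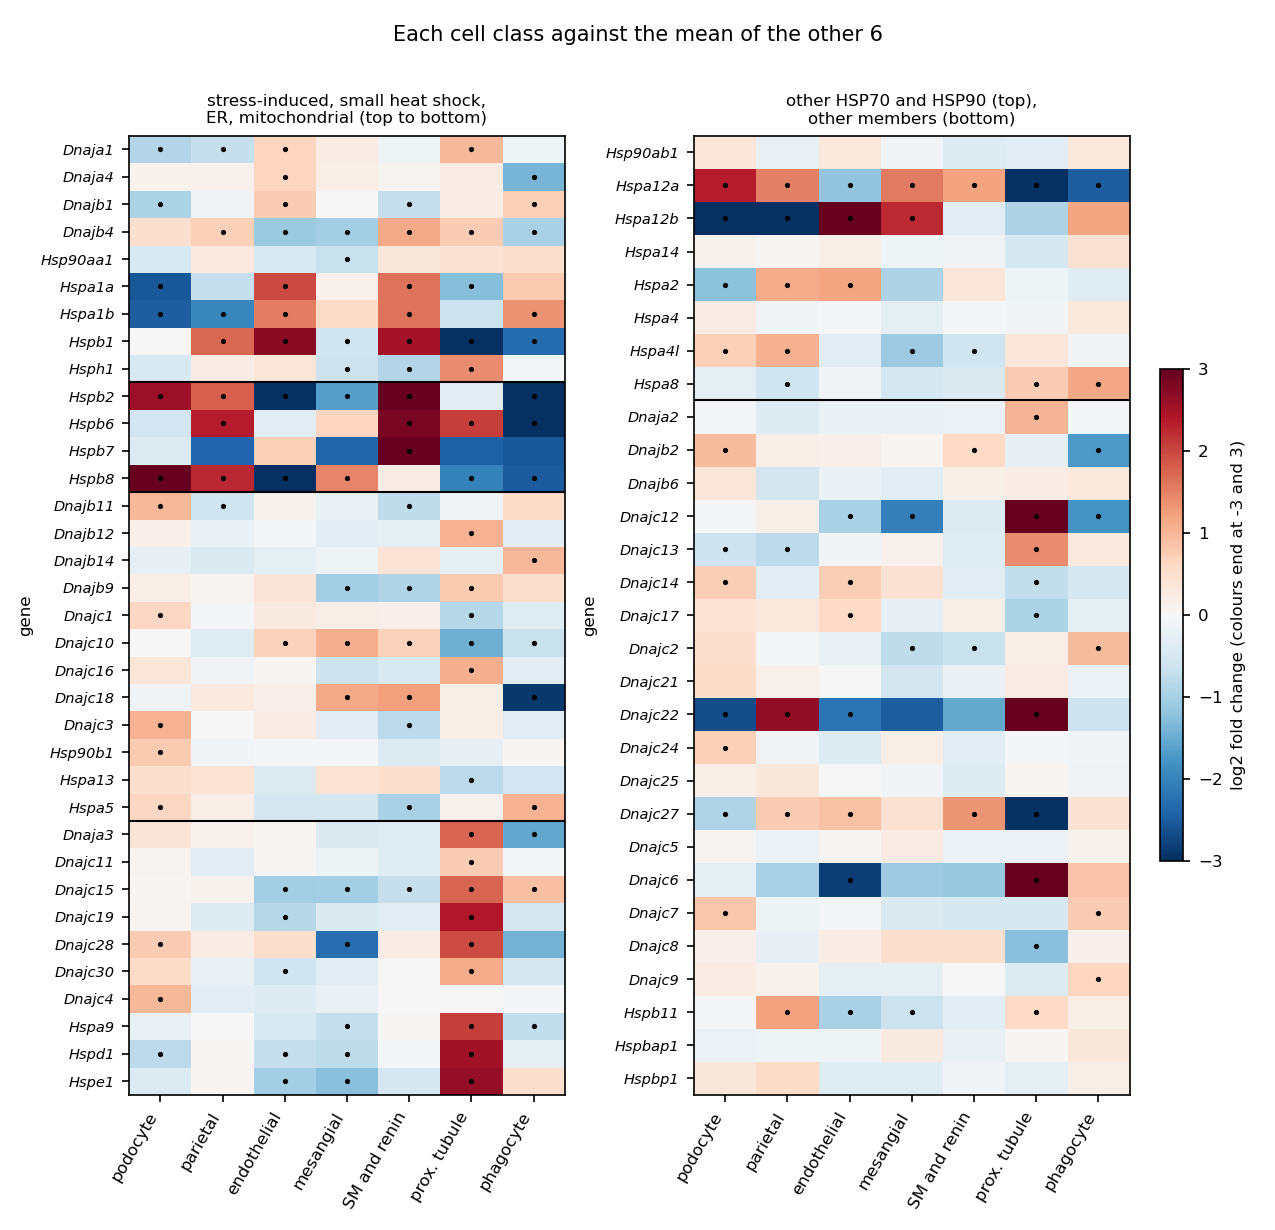
Log2 fold change of each of the 64 tested members in each of 7 classes against the mean of the other classes, with colour ends at -3 and 3 and dots on called values. Of the 10 mitochondrial members, 9 are called higher in the proximal tubule. In podocytes 4 stress-induced members are called lower and 5 ER members higher. Endothelial cells have 6 stress-induced members and 1 ER member called higher.

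Among the 9 cytosolic stress-induced genes, endothelial cells had 6 higher and 1 lower (4 and 1 with DESeq2), with a median log2 fold change of 0.65 (all genes 0.02), and podocytes had 0 higher and 4 lower (0 and 6 with DESeq2), with a median of -0.45 (all genes -0.01). Smooth muscle and renin cells had 4 higher and 2 lower (median 0.33), proximal tubule cells 3 and 2 (0.25), and mesangial cells 0 and 4 (0.01; 0 and 2 without the RPC-ERαKO library, without the female library 1 and 2, and 0 and 2 without the replicate block). Of all genes, 22.3% and 16.4% were called higher and lower in endothelial cells and 22.0% and 21.6% in podocytes. The shares were 18.8% and 12.7% in smooth muscle and renin cells and 19.7% and 14.3% in mesangial cells. In the proximal tubule they were 27.5% and 27.9%, near the members' 3 and 2 of 9. Hspa1a, an inducible HSP70, stood at 504, 326 and 296 CPM in endothelial cells (1.97 ± 0.28, adjusted p = 3.01e-06) and at 458, 176 and 236 CPM in smooth muscle and renin cells (1.63 ± 0.30, adjusted p = 1.34e-04). Podocytes held 43.3, 20.6 and 10.99 CPM (-2.54 ± 0.39, adjusted p = 7.57e-06), below all endothelial and smooth muscle values. Its near-copy Hspa1b ran alongside: 119, 67.6 and 45.3 CPM in endothelial cells (1.53 ± 0.21), 152, 41.4 and 41.4 in smooth muscle and renin cells (1.63 ± 0.24), and 10.9, 7.08 and 1.53 in podocytes (-2.47 ± 0.28). Hspa1b was also called higher in phagocytes (103, 40.3 and 15.8 CPM; 1.34 ± 0.35), but not without the male library (0.81). The 2 genes can be told apart at the 3′ end, where 0% of Hspa1a and 2.98% of Hspa1b words recur in other genes. The DnaJ partners followed in endothelial cells and podocytes: endothelial Dnajb1 was higher (120, 94.0 and 73.1 CPM; 0.76 ± 0.12, or 0.58 and under 1.5-fold without the male library) and podocyte Dnajb1 lower (35.1, 33.1 and 26.01; -0.95 ± 0.13). Smooth muscle and renin clusters, unlike for Hspa1a, held little Dnajb1, at 18.7 to 48.8 CPM. Dnaja1, another HSP40, was higher in endothelial cells (0.65 ± 0.09, or 0.57 and under 1.5-fold with DESeq2) and proximal tubule (0.96 ± 0.09) and lower in podocytes (-0.88 ± 0.10) and parietal epithelial cells (-0.69 ± 0.10, or -0.58 and under 1.5-fold with upper quartile scaling). Dnajb4 was the 1 stress-induced member called lower in endothelial cells (45.0, 56.4 and 42.4 CPM; -1.12 ± 0.13), and it was higher in smooth muscle and renin cells (200, 188 and 113; 1.13 ± 0.12). Hsph1, an HSP110 exchange factor, was higher in the proximal tubule (105, 86.8 and 74.0 CPM; 1.42 ± 0.11). Hsp90aa1, the inducible cytosolic HSP90, was called only as lower in mesangial cells (637, 391 and 423.5 CPM; -0.67 ± 0.11), and that call was lost without the female library (-0.53).

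The immediate early genes, 15 genes such as Fos and Jun that respond within minutes to many stimuli, were ordered in part like the stress-induced members: 7 higher and 0 lower in endothelial cells and 0 higher and 5 lower in podocytes. They went another way in phagocytes (9 higher, 1 lower), and in the proximal tubule 0 were higher and 11 lower. Mesangial cells had 1 and 8, smooth muscle and renin cells 3 and 2, and parietal epithelial cells 4 and 1. Of all genes, 22.3% were higher in endothelial cells and 22.5% in phagocytes. Lower were 21.6% in podocytes, 27.9% in the proximal tubule and 14.3% in mesangial cells. The last 2 pairs of counts were near the shares of all genes (18.8% and 12.7%, and 22.5% and 12.4%). The part of the immediate early genes in the class differences of the stress-induced members was not tested.

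In the ER the order of the classes was different. Podocytes had 5 of the 12 ER members higher and 0 lower (median 0.42), or 3 and 0 with DESeq2 and with upper quartile scaling. Smooth muscle and renin cells had 2 higher and 4 lower (median -0.34), or 3 and 2 in cells at 10% mitochondrial UMIs or less. The proximal tubule had 3 of each, or 2 higher and 7 lower at that limit. Its 3 of each were near the 27.5% and 27.9% of all genes called in that class. All genes were called higher and lower at 22.0% and 21.6% in podocytes and 18.8% and 12.7% in smooth muscle and renin cells. Dnajc3, which restrains the ER stress kinase PERK, stood at 410.5, 403 and 402 CPM in podocytes, above every other class (1.05 ± 0.09, adjusted p = 3.38e-09). Dnajb11, a BiP co-chaperone, reached 162, 170 and 174 CPM (1.0 ± 0.09), and Hsp90b1 (GRP94), the ER HSP90, reached 1014, 1103 and 1004 CPM (0.78 ± 0.13), both above every other class. Hspa5, or BiP, at 1083, 1067 and 1090 CPM in podocytes was called higher (0.61 ± 0.13, adjusted p = 3.38e-04). That call was lost with DESeq2 (0.47), upper quartile scaling (0.56) and without the RPC-ERαKO library (0.57), each under 1.5-fold, and podocyte Hspa5 was surpassed in part by phagocytes at 1451, 1109 and 967 CPM (1.04 ± 0.13). Smooth muscle and renin cells held the least Hspa5, 401.5, 391 and 467 CPM, below every other class (-0.97 ± 0.15, adjusted p = 1.84e-05). Of the 3 ER members with the ER stress response element, Hsp90b1 and Dnajc3 were called higher in podocytes under every setting run, and Hspa5 lost its call under 3 of them.

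Not every ER member did this. Dnajc10, an ER disulfide reductase, was highest in mesangial cells at 147, 145 and 149.5 CPM, above every other class (1.10 ± 0.10, adjusted p = 7.78e-09), and lowest in the proximal tubule at 23.6, 16.5 and 20.6 CPM (-1.47 ± 0.13). Dnajb14, an ER membrane DnaJ protein, was highest in phagocytes (92.2, 101.5 and 86.7 CPM; 1.0 ± 0.14), where Dnajc18 was lowest (3.02, 1.49 and 2.63; -2.88 ± 0.41). Dnajb9, which holds the sensor IRE1 in check, was lower in mesangial cells (46.8, 47.2 and 33.4 CPM; -1.05 ± 0.19) and in smooth muscle and renin cells (32.6, 46.1 and 38.5; -0.91 ± 0.18). Among the other 18 genes of the unfolded protein response and ER folding, podocytes had 10 higher and 0 lower (median 0.65), including the disulfide isomerases Pdia6 (1.79 ± 0.12) and Pdia4 (1.56 ± 0.11) and the transcription factor Xbp1 (0.99 ± 0.10). Phagocytes had 9 higher and 1 lower, smooth muscle and renin cells 0 higher and 7 lower (median -0.49) and mesangial cells 0 and 5. Parietal epithelial cells had 0 and 2, endothelial cells 0 and 1 and the proximal tubule 1 and 3. Of all genes, 22.0% were called higher in podocytes and 22.5% in phagocytes. Lower calls took 12.7% of all genes in smooth muscle and renin cells and 14.3% in mesangial cells. Of 22 tested heat shock factor and co-chaperone genes, the proximal tubule had 7 higher and 3 lower, podocytes 3 and 4, mesangial cells 2 and 3, phagocytes 1 and 3, parietal epithelial and endothelial cells 2 and 1 each, and smooth muscle and renin cells 1 and 1. The 7 of 22 in the proximal tubule is near the 27.5% of all genes called higher there. Every other count of these 22 genes lay below the share of all genes in its class.

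The mitochondrial members were higher in the proximal tubule, a segment packed with mitochondria. There 9 of 10 were called higher and 0 lower (27.5% and 27.9% of all genes), with a median log2 fold change of 1.85 (all genes -0.16). Hspd1 (HSP60), the chaperonin ring, stood at 883, 592 and 605 CPM (2.53 ± 0.08, adjusted p = 2.39e-17), and its lid Hspe1 (HSP10) at 1083, 874.5 and 991 CPM (2.63 ± 0.09, adjusted p = 1.24e-16). Hspa9, the HSP70 of the matrix import motor, reached 360, 253 and 287 CPM (2.07 ± 0.07), and Dnajc19, its DnaJ partner at the inner membrane, 453.5, 304 and 237 CPM (2.41 ± 0.09). All 4 lay above every other class in all 3 libraries. Dnajc15, a paralogue of Dnajc19, and Dnaja3 did the same at 140, 161 and 174 CPM and at 50.9, 50.2 and 43.7 CPM. Endothelial and mesangial cells each had 0 higher and 5 lower (medians -0.54 and -0.56), where 16.4% and 14.3% of all genes were called lower. Hspd1 and Hspe1 overlap head to head in the annotation, and 68.5% of the Hspe1 3′ words recur in other genes. Barcodes removed for over 25% mitochondrial UMIs also carried more Hspe1 than the kept cells, at 499, 573 and 550 against 306, 278 and 360 per 1000000 non-mitochondrial UMIs, and less Hspb1, at 67.2, 40.4 and 80.6 against 396, 330 and 407.

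A further 3 DnaJ genes had proximal tubule values above those of the other 6 classes. Dnajc12, a co-chaperone of the aromatic amino acid hydroxylases, stood at 589.5, 185 and 152 CPM (5.10 ± 0.18, adjusted p = 2.73e-16), with the male library far above the others. Dnajc22 reached 54.7, 37.9 and 53.3 CPM (6.86 ± 0.22) and Dnajc6 (auxilin), which uncoats clathrin vesicles, 14.4, 6.73 and 6.88 CPM (5.47 ± 0.55). The thick limb and distal tubule cells of the male library (36 cells), which are outside the 7 classes, held Dnajc6 at 9.70 CPM. Endothelial Dnajc6 was called lower at adjusted p = 0.0489 from 0.157, 0 and 0 CPM, and that call was lost without any 1 of the libraries and without the replicate block. Hspb11, an intraflagellar transport protein despite its name, was highest in parietal epithelial cells at 68.2, 83.9 and 86.7 CPM (1.20 ± 0.12), as was Hspa4l, an HSP110 relative (81.4, 63.4 and 62.4; 1.07 ± 0.14). Podocytes held the highest Dnajb2, a ubiquitin-binding DnaJ protein (61.3, 62.2 and 60.2 CPM; 0.95 ± 0.08), and Dnajc4 (62.4, 62.4 and 62.2; 1.0 ± 0.09), and in both genes the 3 libraries nearly coincided.

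Several members were low or nearly missing in a class. Mesangial cells held Hspb8 at 31.7, 41.5 and 29.2 CPM (1.46 ± 0.26) and Dnajc18, an ER membrane DnaJ protein, at 33.1, 34.0 and 40.7 CPM (1.15 ± 0.16), both called higher, but Dnajc12 at 8.63, 5.66 and 4.25 CPM (-2.05 ± 0.46). Mesangial Hspb2 and Dnajc28, called lower, lost that call when the RPC-ERαKO library was left out, Hspb2 also without the male and Dnajc28 also without the female library. Parietal epithelial cells held less Hspa1b, at 13.2, 7.80 and 7.93 CPM (-1.95 ± 0.35), and more Dnajc22, at 7.18, 2.93 and 7.93 CPM (2.65 ± 0.36), than the mean of the other classes. In the proximal tubule Hspa12a stood at 6.08, 3.67 and 9.98 CPM (-2.98 ± 0.28). Hsph1 was called lower in smooth muscle and renin cells (39.8, 23.9 and 25.9 CPM; -0.88 ± 0.15). Some lower calls came from classes with at most 5 UMIs a library and are given without a fold: Hspa12b in podocytes (2, 5 and 0 UMIs) and in parietal epithelial cells (2, 0 and 0), Dnajc22 in podocytes (3, 2 and 1), Dnajc27 in the proximal tubule (1, 1 and 1) and Hspb2 in phagocytes (1, 0 and 0). Among these, podocyte Hspa12b lost its call without the male library and podocyte Dnajc22 without the RPC-ERαKO library.

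The male and female libraries were then compared within each class. With 1 mouse each no test can be made. Values are log2 ratios of CPM with 1 CPM added. Their exact 95% intervals cover counting error only and leave the added CPM out, so at low levels a value can lie off the centre of its interval. Classes of 1 library share that mouse. Hspa1a stood higher in the male library in 6 of 7 classes, with the interval above 0 in all 6. The ratio was 2.42 [1.88 to 3.11] in parietal epithelial cells (141 against 25.4 CPM), or 1.54 with every library clustered separately, and 2.41 [1.92 to 2.97] in phagocytes (305 against 56.7). It was 1.38 [1.17 to 1.60] in smooth muscle and renin cells (458 against 176), 1.32 [0.87 to 1.83] in mesangial cells (209 against 83.0) and 1.03 [0.86 to 1.28] in podocytes (43.3 against 20.6). In endothelial cells it was 0.63 [0.55 to 0.71], and 0.30 with called doublets kept. The exception was the proximal tubule class, at -1.05 [-1.61 to -0.56] from 33.4 against 70.3 CPM, where male and female cells mostly came from different clusters. That value became 0.27 with every library clustered separately and -0.14 in cells at 10% mitochondrial UMIs or less. Cluster 11, unnamed but with proximal tubule as its best marker list, held 111 against 74.3 CPM (77 and 38 cells). Hspa1b stood higher in the male library in 6 of 7 classes, up to 1.85 [1.45 to 2.34] in smooth muscle and renin cells.

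**Figure D3:**
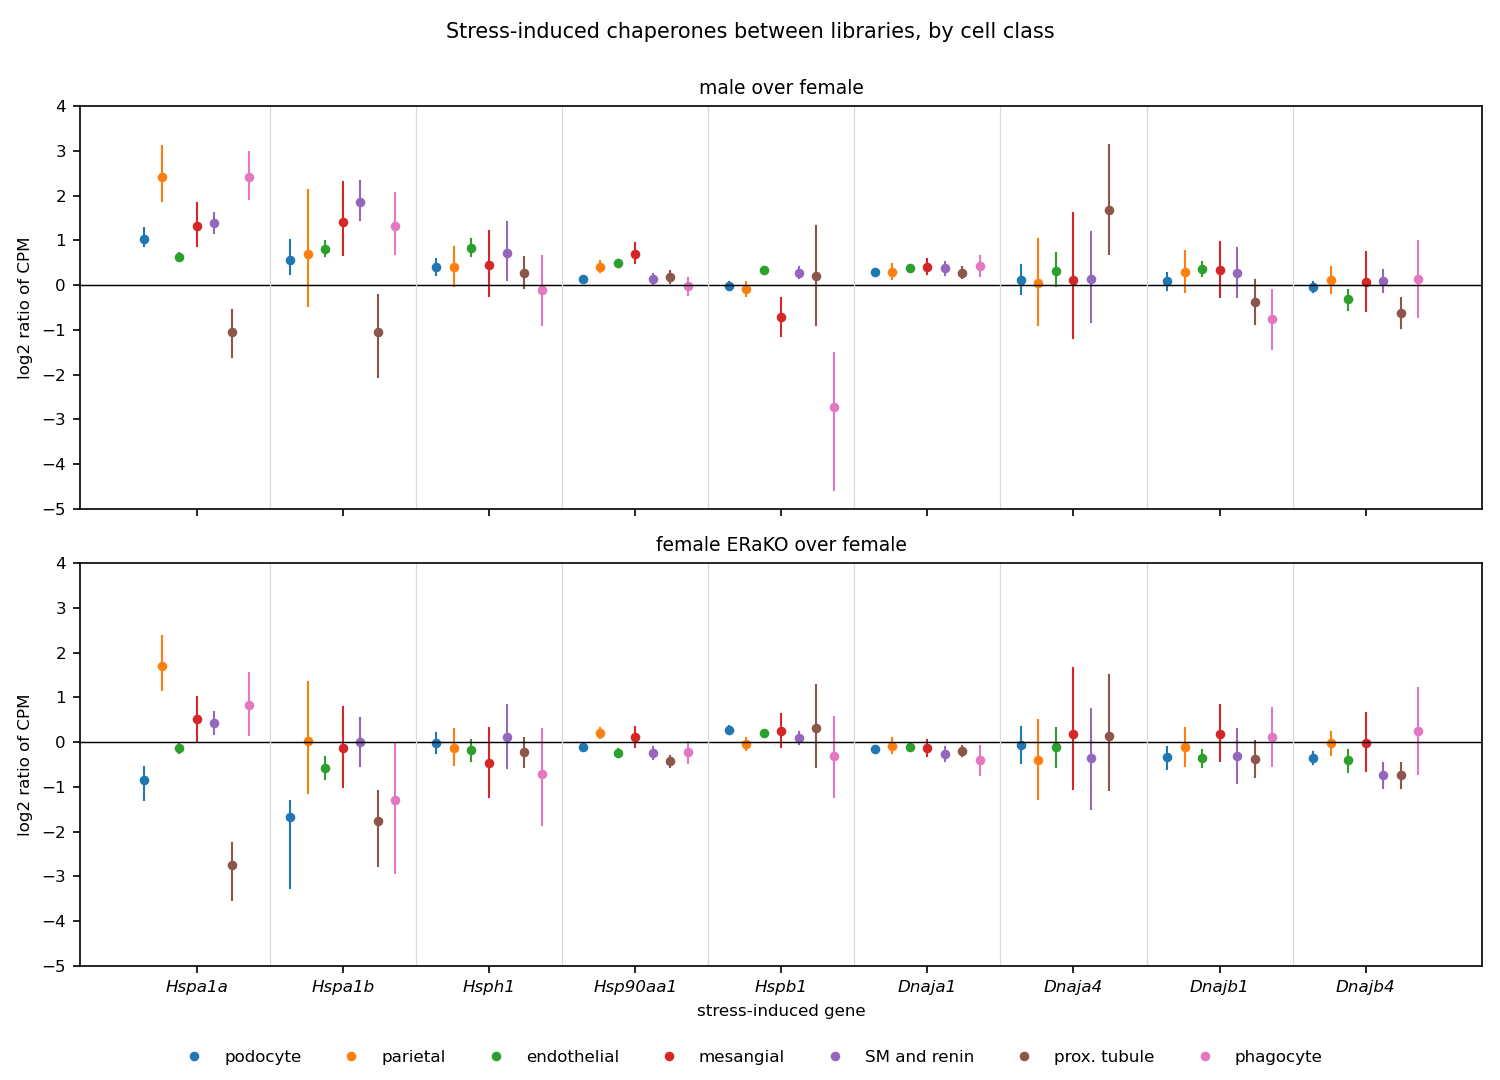
Log2 ratios of CPM for 9 stress-induced members in 7 classes, male over female and RPC-ERαKO over female, with 95% counting intervals, where both libraries together had at least 20 counts. Hspa1a and Dnaja1 lie above 0 in 6 and 7 classes for the male library, while Dnaja1 lies below 0 in all 7 for the RPC-ERαKO library.

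Dnaja1 gave the most even difference. It was higher in the male library in 7 of 7 classes, all intervals above 0, within a narrow band of 0.28 to 0.43, from 372 against 305 CPM in podocytes to 544 against 405 in phagocytes. Keeping only cells at 10% mitochondrial UMIs or less turned the proximal tubule value to -0.40. Hsp90aa1 was higher in 6 of 7, all 6 intervals above 0, up to 0.70 [0.49 to 0.93] in mesangial cells (637 against 391 CPM). Hsph1 was higher in 6 of 7, with 3 intervals above 0, the largest in endothelial cells (103 against 57.7 CPM, 0.83 [0.66 to 1.02]). Hspb1 was not part of this, with 3 classes above 0, 2 intervals above and 2 below, and in phagocytes it was -2.72 [-4.57 to -1.52] from 5 against 37 UMIs, or -0.67 with called doublets kept. Dnajb4 had 0 intervals above 0 and 2 below.

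The median over the stress-induced members, male over female, was 0.13 in podocytes (all genes 0.01), 0.30 in parietal epithelial (0.07), 0.38 in endothelial (0.00), 0.41 in mesangial (0.01) and 0.28 in smooth muscle and renin cells (-0.00). For the ER members the same medians were 0.05, 0.16, 0.01, -0.01 and 0.05. In phagocytes the stress-induced median was 0.05 (all genes -0.16), with 0.00 to 0.43 over 6 alternatives. In the proximal tubule it was 0.18, where all genes had 0.18, and it lay between -0.54 and 0.15 over 6 alternatives, 4 of them of the other sign. Summed over the stress-induced list, endothelial cells held 3608, 2672 and 2558 CPM and podocytes 1283, 1138 and 1057, so the male library was the highest in both. It was also the highest in the other 5 classes. Immediate early genes moved with this in podocytes (median 0.57), parietal epithelial (0.34), endothelial (0.35) and mesangial cells (0.35), but not in smooth muscle and renin cells (-0.09), phagocytes (-0.45) or the proximal tubule (-0.69). In smooth muscle and renin cells and in phagocytes Hspa1a stood higher in the male library all the same. Their part in these values was not tested.

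Few members passed 1.5-fold between the male and female libraries. In podocytes 1 of 61 measured members was higher and 0 lower (all genes 1.87% and 1.93%), and in endothelial cells 3 and 1 of 61 (2.88% and 3.35%). Parietal epithelial cells had 6 and 1 of 60 (10.2% and 5.42%), mesangial cells 4 and 4 of 54 (9.31% and 9.72%), and smooth muscle and renin cells 4 and 1 of 59 (6.95% and 7.63%). The proximal tubule had 8 and 9 of 55 (21.4% and 12.8%) and phagocytes 5 and 4 of 45 (5.86% and 20.7%). These shares were near those of all genes in most classes. The stress-induced members among them were 1 of 1 higher in podocytes, 2 of 6 in parietal epithelial cells, 3 of 3 in endothelial cells and 3 of 4 each in mesangial and in smooth muscle and renin cells. In the proximal tubule 1 of 8 higher and 3 of 9 lower members were stress-induced, and in phagocytes 2 of 5 higher and 2 of 4 lower.

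**Figure D4:**
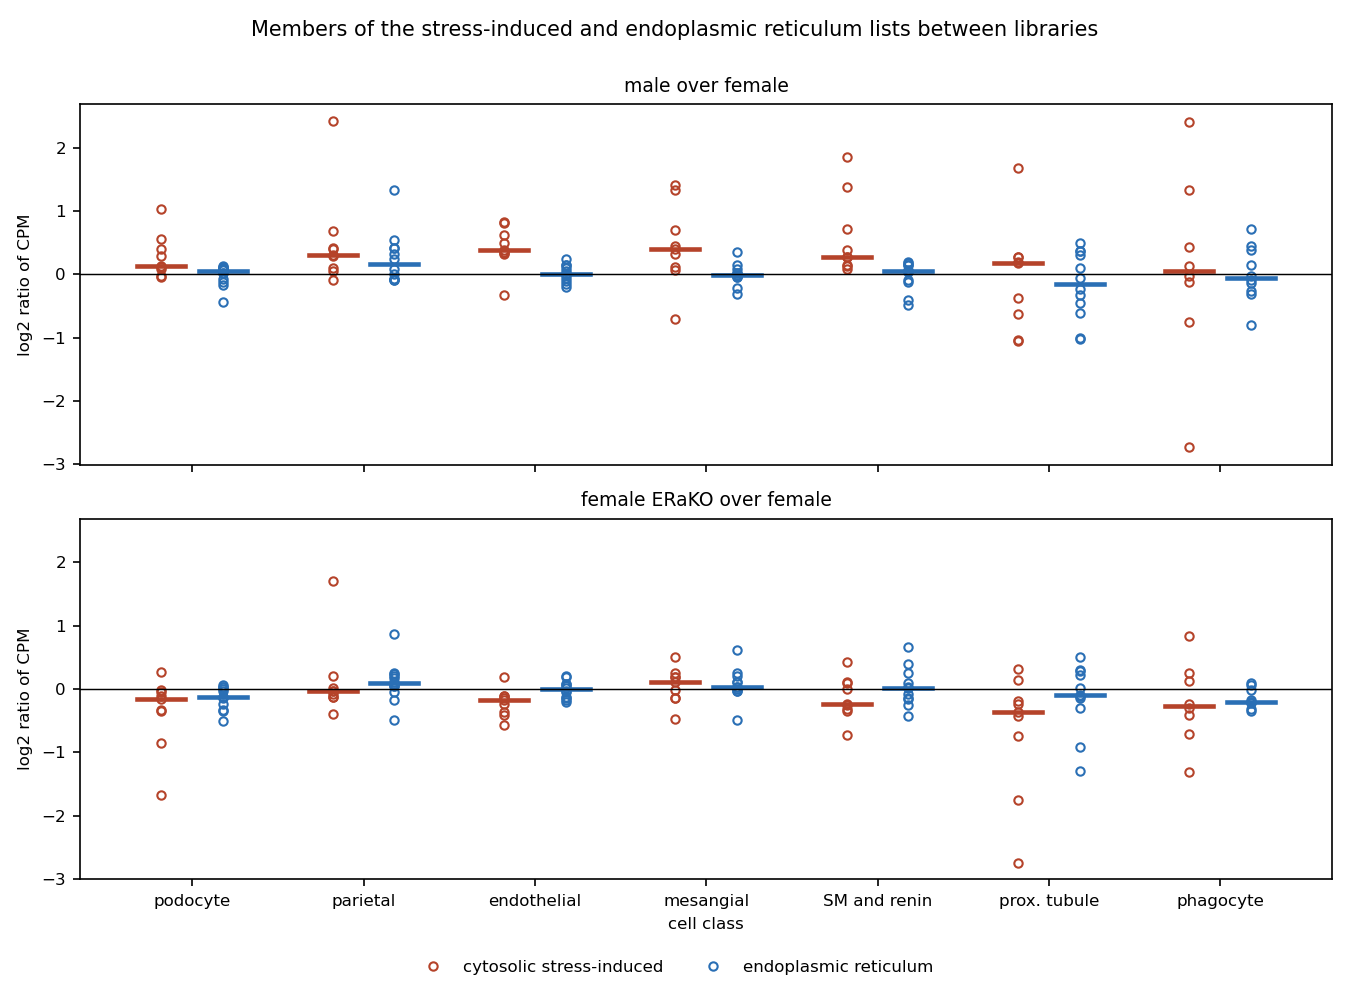
Log2 ratios of single stress-induced and ER members in each class, with bars at the list medians, for male over female and RPC-ERαKO over female. The stress-induced medians for the male library lie between 0.28 and 0.41 in 4 classes, whereas ER medians there lie between -0.01 and 0.16.

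Of the ER members, Dnajb9 was lower in the male library in 7 of 7 classes, with 4 intervals below 0: -0.43 [-0.57 to -0.31] in podocytes (68.5 against 92.7 CPM), -0.20 in endothelial cells, -0.80 in phagocytes and -1.01 [-1.40 to -0.66] in the proximal tubule (65.3 against 133), or -2.90 at 10% mitochondrial UMIs or less. Hsp90b1 had 4 intervals below 0 and 0 above. Hspa5 had 3 above and 1 below, among them 0.42 [0.31 to 0.54] in parietal epithelial cells (1174 against 876 CPM) and 0.39 in phagocytes. The proximal tubule had the largest differences outside these lists. Dnajc12 was 1.66 [1.48 to 1.87] (589.5 against 185 CPM), Dnajc2, a ribosome-bound DnaJ protein, 1.56 (90.4 against 29.97) and Hsp90ab1 0.93 (1659 against 870). These sat across different clusters: Dnajc12 was at 602 CPM in the male cluster 20, and at 374 and 338 in cluster 13 but 56.6 and 64.3 in cluster 14 of the female and RPC-ERαKO libraries. The male cluster thus exceeded both clusters of both other libraries in Dnajc12, by less over cluster 13 than over the whole class. In podocytes, the largest class, Hspb11 was -0.52 [-0.75 to -0.33] from 26.1 against 38.0 CPM, and in endothelial cells Dnajc24, a DnaJ protein of diphthamide synthesis, was -0.42 [-0.76 to -0.11] from 20.7 against 27.9 CPM.

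The RPC-ERαKO library was set against the same female library, so these ratios share their denominator with those above. Dnaja1 was below the female library in 7 of 7 classes, with 5 intervals below 0, from -0.41 in phagocytes (305 against 405 CPM) to -0.08 in parietal epithelial cells. With every library clustered separately, the parietal epithelial and mesangial values became 0.13 and 0.09. Hsp90aa1 had 5 intervals below 0 and 1 above, and Hspa1b 4 below and 0 above, of which the proximal tubule value of -1.76 [-2.77 to -1.08] from 19 and 40 UMIs became 0.16 in cells at 10% mitochondrial UMIs or less. Dnajb4 had 4 below and 0 above, including smooth muscle and renin cells at -0.73 [-1.02 to -0.46] (113 against 188 CPM) and the proximal tubule at -0.74 (80.5 against 135), or -1.34 in its cells at 10% mitochondrial UMIs or less. Hspa1a split, with 4 intervals above 0 and 3 below. It was 1.70 [1.16 to 2.37] in parietal epithelial cells (84.7 against 25.4 CPM) and -2.75 [-3.52 to -2.26] in the proximal tubule (9.63 against 70.3), which became -1.25 at 10% mitochondrial UMIs or less, -1.90 with called doublets kept and -2.04 with every library clustered separately. In podocytes Hspa1a was -0.85 [-1.28 to -0.55] (10.99 against 20.6 CPM) and Hspa1b -1.68 [-3.25 to -1.32] (1.53 against 7.08, from 11 and 114 UMIs), or -0.89 with 5 CPM added in place of 1. The parietal epithelial value rests on 26 female UMIs, of which 34.6% came from 1 cell, and it became 0.38 with every library clustered separately.

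Medians of the stress-induced members, RPC-ERαKO over female, were -0.16 in podocytes, -0.18 in endothelial and -0.24 in smooth muscle and renin cells, -0.26 in phagocytes and -0.37 in the proximal tubule, with -0.03 in parietal epithelial and 0.12 in mesangial cells. All genes had medians between -0.07 and 0.05. ER medians were -0.13, -0.00, 0.01, -0.20 and -0.10 in the first 5 of these and 0.10 and 0.04 in the last 2. Few members passed 1.5-fold here. Podocytes had 0 higher and 3 lower of 61 (all genes 2.69% and 4.0%), endothelial cells 0 and 1 of 60 (3.99% and 4.83%), and mesangial cells 3 and 1 of 54 (11.1% and 7.81%). Parietal epithelial cells had 6 and 2 of 61 (10.8% and 6.57%), smooth muscle and renin cells 4 and 4 of 59 (6.72% and 11.4%), the proximal tubule 4 and 7 of 59 (9.4% and 9.84%) and phagocytes 1 and 3 of 40 (9.9% and 16.2%). The members' shares were near or below those of all genes.

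In smooth muscle and renin cells the ER members had a median of 0.01, RPC-ERαKO over female, and some ER genes stood higher in the RPC-ERαKO library. Hsp90b1 was 0.67 [0.52 to 0.82] (666 against 419 CPM) and Hspa5 0.25 [0.09 to 0.42] (467 against 391). Of the 18 other ER folding genes, 6 were at least 1.5-fold higher and 0 lower (all genes 6.72% and 11.4%). They included the lectin chaperone Calr (0.92, 488 against 258 CPM) and Pdia3 (0.73, 402 against 242). In the same cells 11 of 14 immediate early genes were at least 1.5-fold lower (all genes 11.4%), with a median of -1.13 (Fos 1552 against 3840 CPM). Cluster 8, which has the highest summed ER level of the 3 clusters of this class, made up 108 of 247 RPC-ERαKO and 35 of 159 female cells. Summed ER levels were 1962 against 1630 CPM in cluster 8, 1647 against 1480 in cluster 7 and 1410 against 1070 in cluster 12, RPC-ERαKO against female. The part of the cluster shares and of the immediate early values in the ER difference was not tested. Fkbp5, an HSP90 co-chaperone induced by glucocorticoids, was lower in the RPC-ERαKO library in podocytes (-1.63, 5.84 against 20.2 CPM) and endothelial cells (-2.02, 6.48 against 29.4). Parietal epithelial Hspb2 was 0.88 [0.23 to 1.66] from 148 and 20 UMIs and Hspb8 -0.66 [-1.09 to -0.24], while Hspa12a there was 0.60 [0.33 to 0.89] (190 against 125 CPM). In phagocytes Hspa8 was -0.36 [-0.49 to -0.23] (1887 against 2420 CPM), and in smooth muscle and renin cells Dnajc2 was -0.63 [-1.19 to -0.09] (31.6 against 49.3). Proximal tubule Dnajc22 was 0.48 [0.06 to 0.94] (53.3 against 37.9 CPM), or -0.41 in cells at 10% mitochondrial UMIs or less, and Dnajb9 there was -1.29 [-1.61 to -1.0] (53.7 against 133 CPM), or -2.38 at 10% mitochondrial UMIs or less.

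Cells were also thinned to 4000 UMIs each, with 0 cells left out, so that shares of cells with a UMI could be set side by side. Hspa1a was found in 60.6%, 44.9% and 42.2% of endothelial cells and in 9.29%, 5.25% and 2.78% of podocytes, and the podocyte intervals (7.69 to 11.1%, 4.13 to 6.56% and 1.75 to 4.18%, Clopper-Pearson 95%) met only between the female and RPC-ERαKO libraries. These intervals cover the sampling of cells within 1 mouse and leave out the spread between mice, so they do not test a difference between libraries. Without thinning the podocyte shares were 15.9%, 11.7% and 6.69%, at median depths of 7794, 9213 and 7415 UMIs, and the endothelial shares 67.5%, 60.2% and 58.9%, at 5999.5, 7551 and 8139.5 UMIs. No class is known to lack Hspa1a. Podocytes and the proximal tubule, at 6.00%, 9.41% and 3.39%, had the lowest shares in the male and RPC-ERαKO libraries, so podocyte shares were not read as expression. Members with low levels in some classes gave wide contrasts: Hspb8 in 35.2%, 33.3% and 31.3% of podocytes against 0.649%, 1.31% and 0.633% of endothelial cells, Hspb7 in 14.4%, 15.1% and 14.2% of smooth muscle and renin cells against 0%, 0.0729% and 0% of podocytes (0 cells allow up to 0.256% and 0.379%), and Dnajc12 in 79.0%, 44.7% and 51.4% of proximal tubule cells against 6.48%, 7.14% and 4.92% of podocytes.

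**Figure D5:**
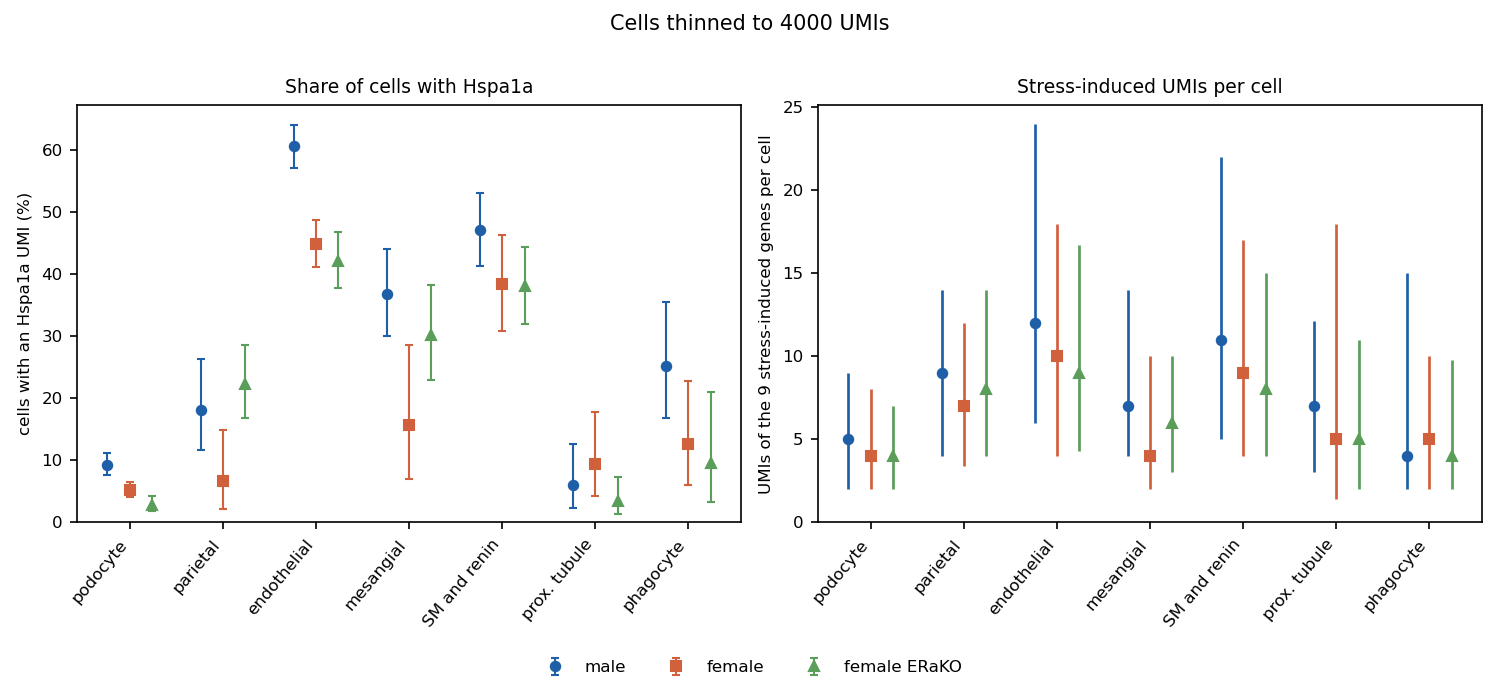
Left, percent of cells with at least 1 Hspa1a UMI after thinning to 4000 UMIs per cell, with Clopper-Pearson 95% intervals; right, stress-induced UMIs per 4000 in each cell, as the median with the 10th to 90th percentile. Endothelial medians are 12, 10 and 9 UMIs and podocyte medians 5, 4 and 4.

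In RPC-ERαKO phagocytes 66.7% of 39 Hspa1a UMIs came from 1 cell. Within the endothelial class, cluster 3 held 747, 424 and 440 CPM of Hspa1a and cluster 2 held 305, 239 and 111, so the male library was highest in both. Summed over the 9 stress-induced members the median endothelial cell held 12, 10 and 9 UMIs of 4000, the median smooth muscle and renin cell 11, 9 and 8, and the median podocyte 5, 4 and 4. Across cells of 1 class and library, which share a library and its depth, the stress-induced sum followed the immediate early sum weakly in most (Spearman 0.25, 0.40 and 0.19 over 770, 688 and 474 endothelial cells) and more closely in female proximal tubule cells (0.61 over 85). It followed the ER sum at 0.07, -0.05 and -0.05 in endothelial cells.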

How the data were processed

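Single cells of glomeruli from 3 mice were profiled by 10x 3′ sequencing, 1 library each. The authors deposited filtered matrices of whole-number UMI counts per gene and cell, not normalized, with the lowest barcode totals at 4284, 5013 and 4899 UMIs (male, female, RPC-ERαKO). The tools were Cell Ranger 6.1.2 with STAR 2.7.5a, on mm10, per the submitters' processing notes. The members and gene lists were chosen with earlier results of these data known.

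Cells under 500 genes or over 25% mitochondrial UMIs were removed, and Scrublet (scanpy 1.11.5) took out 112, 53 and 142 doublets. Cells were scaled to 10000 UMIs and clustered with the Leiden algorithm (2000 variable genes, 30 components, 15 neighbours, resolution 1), leaving members, pathway lists, mitochondrial, sex-linked and haemoglobin genes out. The 25 clusters were named from 15 marker lists where the best list scored at least 1 and led by 0.75, with at least 3 markers 2-fold up; clusters that met no list stayed unnamed. UMIs were summed per class and library and tested with edgeR 4.0.16 (TMM, quasi-likelihood, library as block, since the classes of a library come from the same mouse). DESeq2 1.42.0, upper quartile scaling, no block, no low count filter, left-out libraries and stricter cells were alternatives. On simulated counts for the podocyte comparison (11421 genes), 37% of 100 genes changed 2-fold and 100% of 100 changed 4-fold were recovered, with 3 false calls of 140. The simulation used a fixed dispersion and few changed genes, and a hit needed adjusted p under 0.05 alone. Its shares therefore do not describe the calls above.

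Library ratios used CPM with 1 CPM added, for genes with at least 20 counts over both libraries. Their exact conditional Poisson intervals leave the added CPM out. Alternatives were 5 CPM, TMM, 100 counts, doublets kept, at most 10% mitochondrial UMIs, and clustering each library on its own. Members are named by these rules: all stress-induced and ER members, the 4 highest and 3 lowest called per class, and the 3 highest and 3 lowest ratios per class and contrast. Those values guided the text, which describes the ones that bear on a group or role; other members named were chosen after their values were seen. Uniqueness of 3′ ends was counted in words of 31 bases over the last 500 bases of GENCODE M21 transcripts. Free RNA in droplets was not modelled.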

Additional observations from a re-analysis of the deposited data

Results flagged for a closer look

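Hspa1a went in opposite directions in 2 classes between the RPC-ERαKO and female libraries, with both intervals past 1.5-fold. Its log2 ratio was 1.70 in parietal epithelial cells and -2.75 in the proximal tubule. The difference between these classes was not tested, since each library is 1 mouse. The parietal epithelial ratio was 0.38 with every library clustered separately, and the proximal tubule ratio was -1.25 in cells at 10% mitochondrial UMIs or less. These directions held under every alternative run, but the sizes did not.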

How the results depend on the processing

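Of 164 calls of a member in a class, 133 were kept under every alternative that leaves out no library and 114 under every alternative, and none turned direction. Of the 14 counts over all members, 3 moved by over 1.5 times, and for these the cause was not tested. Members lower in parietal epithelial cells fell from 6 to 3 with upper quartile scaling, members lower in smooth muscle and renin cells from 9 to 5 at 10% mitochondrial UMIs or less, and members lower in mesangial cells from 15 to between 9 and 14 when 1 library was left out. Counts within a list moved as much in podocytes (ER higher, 5 to 3 with DESeq2 and upper quartile scaling), the proximal tubule (ER lower, 3 to 7 at 10% mitochondrial UMIs or less) and mesangial cells (stress-induced lower, 4 to 2 without the female or RPC-ERαKO library or the replicate block), among others. Without the replicate block all 14 counts stayed within 1.5 times (mesangial lower 13, podocyte higher 14), and 5 of the 164 calls were lost. Between libraries, the endothelial stress-induced median, male over female, moved from 0.38 to 0.30 with doublets kept. At 10% mitochondrial UMIs or less the proximal tubule medians, RPC-ERαKO over female, moved to -0.93 for stress-induced and -0.69 for ER members. Proximal tubule Hspa1a, male over female, turned to 0.27 with every library clustered separately, and Hspa1b, RPC-ERαKO over female, to 0.16 at 10% mitochondrial UMIs or less. DESeq2 moved all genes by a median of -0.14 in podocytes and 0.11 in the proximal tubule, upper quartile scaling by 0.12 in parietal epithelial cells, and TMM moved male over female ratios by -0.24 in the proximal tubule and 0.18 in phagocytes. Without thinning, 34 of 42 shares of cells moved outside their intervals. With 1 mouse per group, no difference between libraries can be assigned to sex or genotype, and counting intervals leave out the spread between mice.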
